A study of Arabidopsis thaliana with 6 samples.

Results

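The small (40S) subunit of the cytosolic ribosome of Arabidopsis thaliana was followed through 57 of its protein genes, which belong to 21 protein families named S3 to S26. A gene counted as measured when a probe set of the array was annotated to that gene alone. That held for 34 genes of 18 families, each with 1 probe set, among 13436 single-gene probe sets on the array. A further 11 of the 57 genes shared 5 probe sets with a paralogue of the same family, and 12 had no probe set named here. The families S5, S6 and S18 had no measured gene. Most of these genes carry only a locus number in the annotation, so the protein family of each locus was taken from established Arabidopsis nomenclature.

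RNA came from light-grown seedlings and was hybridized to 6 Affymetrix ATH1 arrays, short-oligonucleotide arrays with 1 dye. The wild type group held 3 arrays from accession Col-0, and the mutant group held 3 arrays from a VFB triple mutant. VFB proteins are F-box proteins, substrate-binding subunits of ubiquitin ligases and relatives of the auxin receptor TIR1. The labels name neither the mutated genes nor the alleles, and no probe set named here belongs to a VFB gene, so the mutations were not checked. Descriptions give 10 days as the age of all seedlings, whereas source names and extract protocols give 5 days for the mutant, so age and genotype cannot be told apart if the latter holds. The extract protocol of mutant replicate 3 speaks of No-0 wild type plants, and that array was kept in the mutant group by its title. Nothing says whether replicates came from separate cultures, and p-values therefore measure only the spread between these samples.

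The 40S subunit binds messenger RNA, scans to the start codon and reads codons against transfer RNA. Each of its proteins is encoded in Arabidopsis by a small family of closely related genes, often on different chromosomes, and the subunit takes up 1 copy of each protein. Transcripts of these genes are abundant in young, growing tissue and are used as a readout of growth and of signalling through the TOR kinase, which acts on S6 through S6 kinases. Loss of single genes is known for leaf phenotypes, such as the pointed first leaves of S18 and S13 mutants and the Minute-like growth of an S5 mutant. The comparison asks which of these transcripts differ in seedlings with mutated VFB genes.

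The values are MAS5 signals, in arbitrary units on a linear scale. The 34 genes fell into a bright majority and a dim minority. On the mean of all 6 arrays, 31 genes passed the brightness limit for testing, the 40th percentile of mean log2 signal, which corresponds to a signal of 108.6. Their mean signals ran from 340.9 to 16596 with a median of 4197, and 27 of the 31 lay above the 90th percentile of all gene probe sets. Signals of different probe sets depend on their oligonucleotides, so no gene's level is set against another's.

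The gene nearest above the limit was AT5G39850, an S9 gene, at 323.5 ± 52.8 in wild type and 358.3 ± 4.87 in the mutant (SD, n = 3 each). The nearest below it was AT5G59240, an S8 gene, at 88.6 ± 16.7 and 106.0 ± 22.8. The other 2 dim genes were the S15 genes AT5G09500, at 23.8 ± 17.6 and 25 ± 16.1, and AT5G43640, at 11.6 ± 10.8 and 22.9 ± 4.72. In all 3 dim genes the mutant and wild type arrays overlapped. AT5G09500 is the direct neighbour of AT5G09510 by locus number, and AT5G09510 was bright, at 1789 ± 222 and 1767 ± 164.

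**Figure D1:**
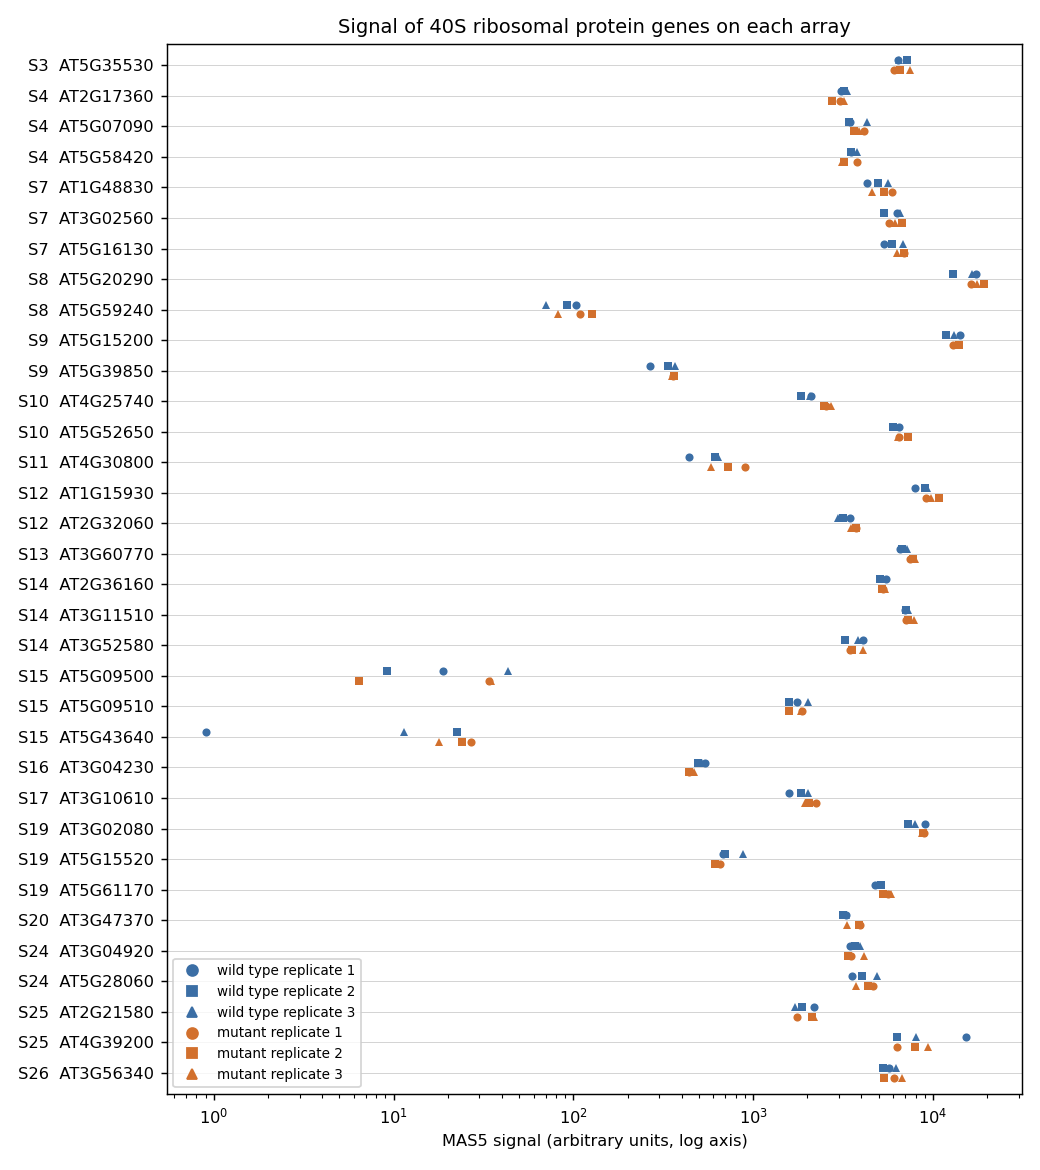
MAS5 signal (log axis) of the 34 measured 40S genes on each of the 6 arrays, 1 row per gene with its protein family. Blue symbols are wild type and orange symbols mutant arrays, with a marker shape per replicate number. The bright genes hold a narrow range across all arrays, and S25 gene AT4G39200 stands high on wild type replicate 1 at 15209. The dim S8 and S15 genes scatter at low signal, and their mean log2 signals over the 6 arrays lie below the test limit.

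Transcripts of the 40S subunit differed little between mutant and wild type. Of the 31 tested genes, 1 rose (AT4G25740) and 0 fell (limma, Benjamini-Hochberg adjusted over all 13647 tested probe sets). At an unadjusted p under 0.05 the counts were likewise 1 and 0, against 31.4% of all tested probe sets in either direction. Over all tested probe sets 8.17% were called higher and 10.4% lower, 18.6% in either direction. Among the 2275 tested probe sets above the 90th percentile of signal, where most 40S genes lie, 23.2% were called, against 1 of 27 of the 40S genes there.

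The estimated differences were small. On the log2 scale (signal + 16, mutant minus wild type) they ran from -0.25 to 0.38, with quartiles at -0.0017 and 0.16. The median size regardless of direction was 0.11, against 0.20 over all tested probe sets and 0.17 over those above the 90th percentile. No tested 40S gene had an estimate of 1.5-fold or more, a size reached by 11.7% of all tested probe sets and 9.89% of the bright ones. The 95% interval of the change lay inside 1.5-fold in both directions for 29 of 31 genes, and inside 2-fold for all 31. The exceptions to the 1.5-fold bound were AT4G30800 (S11) and AT4G39200 (S25).

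**Figure D2:**
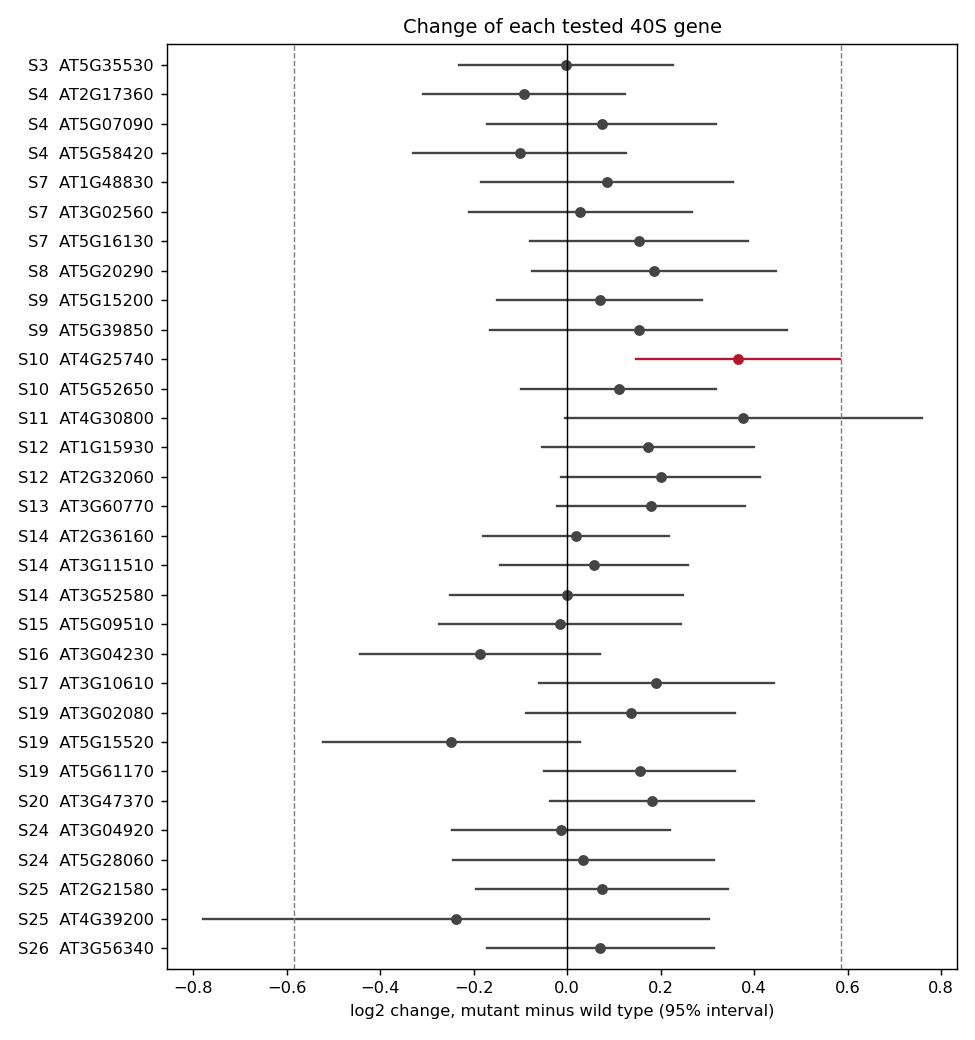
Log2 change (mutant minus wild type) of the 31 tested 40S genes, with points for the limma estimate and bars for its 95% interval. Dashed lines mark 1.5-fold either way. The called gene AT4G25740 is in red, at 0.37, and the bars of AT4G30800 and AT4G39200 cross a dashed line.

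The spread between replicates was also small. The median within-group SD was 0.13 on the log2 scale, against 0.17 over all tested probe sets and 0.13 over those above the 90th percentile. Standard errors of the 40S changes ran from 0.092 to 0.25, with a median of 0.11.

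Mutant and wild type arrays did not overlap in 7 of the 31 genes, 5 higher and 2 lower. Over all tested probe sets this held for 36.1%, with 15.0% higher and 21.2% lower. Among probe sets above the 90th percentile it held for 41.7%, against 5 of 27 of the 40S genes. The 5 higher genes were AT4G25740 (S10), AT2G32060 (S12), AT3G60770 (S13), AT5G61170 (S19) and AT3G47370 (S20), and the 2 lower ones AT3G04230 (S16) and AT5G15520 (S19). This count moved with the scaling of the arrays: after quantile normalization 2 genes were separated higher and 1 lower, with 2 of the 7 among them, and after median centring 13 were higher and 1 lower, with 6 of the 7 among them.

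More 40S changes were above 0 than below it, 22 against 9, whereas 43.9% of all tested probe sets were above 0. Most probe sets above the 90th percentile of signal, where most 40S genes lie, were also above 0. Their 40th percentile of change was -0.0067 and their 42.5th was 0.0094. The median change was 0.074, against -0.045 over all tested probe sets and 0.052 over those above the 90th percentile. This balance moved with the scaling of the arrays. After quantile normalization 17 of 31 were above 0 and the median was 0.020, against a median of -0.011 over all. After centring each array on its median 26 were above 0 and the median was 0.16, against 0.045. Over all tested probe sets the higher share of calls was 43.9% as deposited, 48.9% after quantile normalization and 61.8% after median centring. Under the 5 scalings and offsets tried, 17 genes stayed above 0, 5 stayed below and the other 9 changed sign in at least 1. Those 9 were AT5G35530 (S3), AT3G02560 (S7), AT5G15200 (S9), all S14 genes, AT5G09510 (S15) and both S24 genes, each with an estimate of 0.069 or less in size as deposited.

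**Figure D3:**
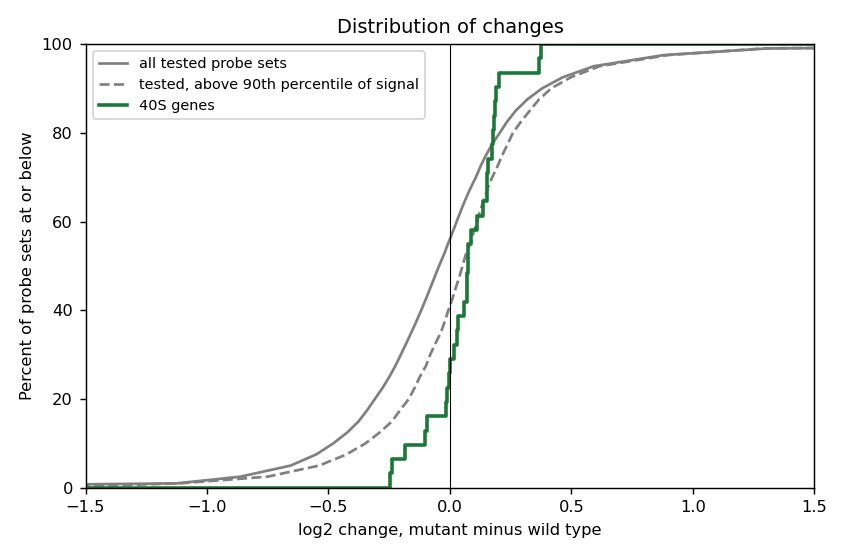
Cumulative share (percent) of log2 changes for the 31 tested 40S genes (green steps), all 13647 tested probe sets (solid grey) and those above the 90th percentile of signal (dashed grey). The green steps all lie between -0.25 and 0.38, and the median of the 40S genes is 0.074, against -0.045 for all.

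Between arrays the 40S genes were shifted by small amounts. Their median deviation from the mean of all arrays was -0.047, -0.066 and 0.0069 on the log2 scale in wild type replicates 1, 2 and 3, and 0.037, 0.065 and 0.055 in the mutant replicates. Over all tested probe sets the corresponding medians were 0.00094, 0.026 and 0.046 in wild type and -0.0082, -0.020 and -0.024 in the mutant. Wild type replicate 2 was the lowest array for 11 of the 31 genes and the highest for 0, and mutant replicate 3 was the highest for 8 and the lowest for 1. Relative to all tested probe sets, the 40S genes were therefore lowest on wild type replicate 2 (-0.092) and highest on mutant replicate 2 (0.084).

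The S10 family held the called gene. S10 sits in the head of the subunit near the channel through which messenger RNA enters. AT4G25740 had signals of 2092, 1846 and 2068 on the wild type arrays and 2532, 2490 and 2722 on the mutant arrays. All mutant arrays were above all wild type arrays. The means were 2002 ± 136 and 2581 ± 124 (SD, n = 3 each), a log2 change of 0.37 ± 0.10 (SE), or 1.29-fold (limma, adjusted p = 0.024). The call did not hold without wild type replicate 2 (limma, adjusted p = 0.111), mutant replicate 2 (0.0542) or mutant replicate 3 (0.0649), nor without a mean-variance trend (0.0589). The log2 change without 1 array ran from 0.31 to 0.40.

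Its paralogue AT5G52650 had 6489, 6010 and 6145 on the wild type arrays and 6494, 7246 and 6403 on the mutant arrays, and the groups overlapped. It differed by 0.11 ± 0.096 on the log2 scale (limma, adjusted p = 0.477). The change of AT4G25740 was larger than that of AT5G52650 by 0.26 ± 0.097 (SE), with a 95% interval from -0.013 to 0.52. The difference between the paralogues was higher on all mutant arrays than on all wild type arrays (exact two-sided permutation p = 0.1, the smallest that 3 against 3 arrays allow).

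Changes of paralogues were compared in the same way in all 17 pairs that 9 families offer. Within an array the log2 signal of one gene was subtracted from that of the other, which removes any scaling factor of the array, and the differences were compared between the groups. In 3 pairs the groups did not overlap, each with an exact permutation p = 0.1 and an adjusted p = 0.567 over the 17 pairs. No pair could pass a threshold of 0.05 in this permutation test. The median size of the difference was 0.068 and the largest was 0.40. In 11 of 17 pairs the 95% interval lay inside 1.5-fold either way, and in 1 pair it excluded 0. These intervals rest on a t distribution with the pooled within-group spread and are not adjusted over the 17 pairs.

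**Figure D4:**
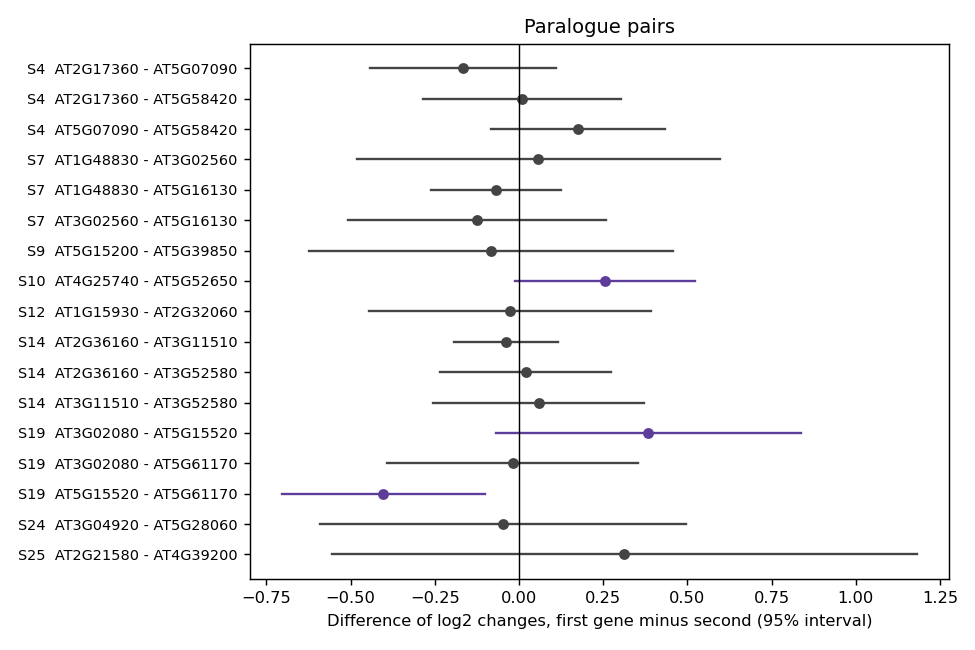
Difference of log2 changes between paralogues (first gene minus second) for the 17 pairs, with unadjusted 95% intervals. Purple marks the 3 pairs in which mutant and wild type arrays did not overlap, the S10 pair and the 2 S19 pairs that include AT5G15520. The interval of AT5G15520 against AT5G61170 is the only one clear of 0.

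The S19 family showed the widest spread among its paralogues, 0.40 on the log2 scale. S19 lies in the head of the subunit and is needed in human and yeast cells to mature the end of the small ribosomal RNA. AT5G15520 had 677.2, 698.5 and 875.0 on the wild type arrays and 651.6, 611.9 and 612.9 on the mutant arrays. Every mutant array was below every wild type array, but its difference of -0.25 ± 0.13 did not pass (limma, adjusted p = 0.203). Without 1 array the difference ran from -0.32 (without wild type replicate 1) to -0.13 (without wild type replicate 3).

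AT5G61170 had 4763, 5139 and 5116 in wild type and 5650, 5266 and 5812 in the mutant, with all mutant arrays higher. It differed by 0.15 ± 0.094 (limma, adjusted p = 0.288). AT3G02080 had 9015, 7223 and 7921 in wild type and 8869, 8842 and 8732 in the mutant, and these groups overlapped. It differed by 0.14 ± 0.10 (limma, adjusted p = 0.403).

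The change of AT5G15520 minus that of AT5G61170 was -0.40 ± 0.11 (SE), with a 95% interval from -0.70 to -0.10. The change of AT3G02080 minus that of AT5G15520 was 0.38 ± 0.16, with an interval from -0.069 to 0.84. Between AT3G02080 and AT5G61170 the difference of changes was -0.019 ± 0.13, with an interval from -0.39 to 0.35. These 3 signs, with AT5G15520 below 0 and its paralogues above, held under quantile normalization, median centring and both other offsets.

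**Figure D5:**
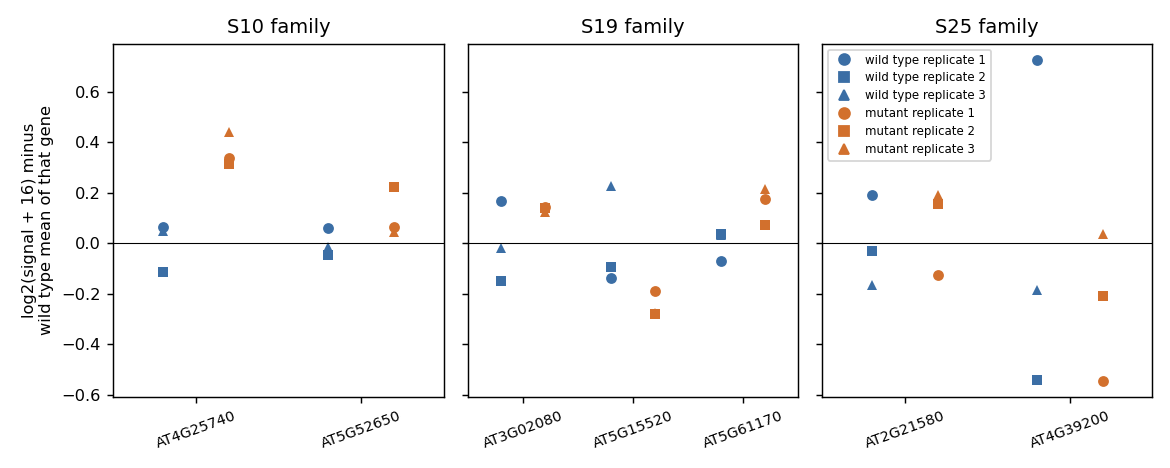
Log2(signal + 16) of the S10, S19 and S25 genes on each array, relative to the wild type mean of the same gene. Blue symbols are wild type and orange symbols mutant arrays, with a marker shape per replicate number. AT4G25740 and AT5G61170 are separated upward, AT5G15520 is separated downward, and AT4G39200 has 1 high wild type array.

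The S25 family came next in spread, at 0.31. S25 is known from yeast and mammalian cells for its part in initiation at internal entry sites. AT4G39200 had 15209, 6310 and 8073 on the wild type arrays and 6295, 7952 and 9425 on the mutant arrays. Wild type replicate 1 alone was high, and the groups otherwise overlapped. Its difference of -0.24 ± 0.25 (limma, adjusted p = 0.562) had the widest standard error of the 31 genes and became 0.13 without that array. Its paralogue AT2G21580 had 2184, 1872 and 1701.6 in wild type and 1751, 2128 and 2184 in the mutant. That gene showed 0.075 ± 0.12 with overlapping groups (limma, adjusted p = 0.730). The pair differed by 0.31 ± 0.31 (SE), with a 95% interval from -0.56 to 1.18.

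Of the 3 S4 genes none was called. S4 is a protein of the body of the subunit. AT2G17360 had 3078, 3178 and 3310 in wild type and 3035, 2740 and 3207 in the mutant, a difference of -0.093 ± 0.10. AT5G58420 had 3518, 3519 and 3791 against 3791, 3193 and 3135, a difference of -0.10 ± 0.10, and AT5G07090 differed by 0.074 ± 0.11. In each the groups overlapped. The pair of AT5G07090 and AT5G58420 differed in change by 0.18 ± 0.093, with an interval from -0.084 to 0.43.

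Of the 3 S7 genes, which also belong to the body of the subunit, none was called either. AT5G16130 had 5367, 5944 and 6786 in wild type and 6894, 6867 and 6293 in the mutant, a difference of 0.15 ± 0.11 with overlapping groups. AT1G48830 showed 0.085 ± 0.12 and AT3G02560 0.028 ± 0.11. The sign of AT3G02560 turned under quantile normalization (-0.049), and that of AT1G48830 without wild type replicate 1 (-0.013). The pair of AT1G48830 and AT5G16130 differed by -0.068 ± 0.070, with an interval from -0.26 to 0.13.

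S11 has its place on the body of the subunit, and AT4G30800 was its measured gene. The highest estimate among the 31 tested 40S genes was found there. It had 438.1, 615.7 and 633.5 on the wild type arrays and 904.4, 724.1 and 582.3 on the mutant arrays. Mutant replicate 3 lay below wild type replicates 2 and 3, so the groups overlapped. The difference of 0.38 ± 0.18 did not pass (limma, adjusted p = 0.164), and without 1 array it ran from 0.21 (without wild type replicate 1) to 0.53 (without mutant replicate 3).

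Both S12 genes were above 0 under every scaling tried. S12 forms part of the beak of the subunit. AT2G32060 had 3437, 3147 and 2962 in wild type and 3728, 3714 and 3514 in the mutant, with all mutant arrays higher, a difference of 0.20 ± 0.098 (limma, adjusted p = 0.188). AT1G15930 showed 0.17 ± 0.10 with overlapping groups. The changes of the S12 genes differed by -0.027 ± 0.15, with an interval from -0.45 to 0.39.

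AT3G60770, an S13 gene, had 6528, 6731 and 7194 in wild type and 7435, 7767 and 7947 in the mutant. S13 faces the large subunit. All mutant arrays were higher, and the difference was 0.18 ± 0.093 (limma, adjusted p = 0.212). AT3G47370, an S20 gene of the subunit's head, had 3297, 3175 and 3296 in wild type and 3916, 3869 and 3321 in the mutant. Its groups did not overlap, though mutant replicate 3 exceeded wild type replicate 1 by little, and the difference was 0.18 ± 0.10 (limma, adjusted p = 0.246).

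S16 reaches with its tail to the transfer RNA in the peptidyl site. AT3G04230, its gene with a probe set of its own, had 539.1, 490.1 and 516.1 in wild type and 441.4, 440.2 and 470.9 in the mutant. Every mutant array was lower, but the difference of -0.19 ± 0.12 did not pass (limma, adjusted p = 0.310). The probe set shared by the other S16 paralogues went the other way, from 13893 ± 529 to 16252 ± 941, with all mutant arrays higher. Its difference was 0.23 ± 0.095 (limma, adjusted p = 0.122), and it cannot be divided between those genes.

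The other shared probe sets had overlapping groups. The set shared by 3 S17 genes differed by -0.017 ± 0.11, that of 2 S20 genes by 0.038 ± 0.11, that of 2 S26 genes by -0.086 ± 0.098 and that of 2 S3 genes by 0.14 ± 0.12, and none passed in limma. In the same families the genes with a probe set of their own showed 0.19 ± 0.12 (AT3G10610, S17), 0.071 ± 0.11 (AT3G56340, S26) and -0.0022 ± 0.11 (AT5G35530, S3), each with overlapping groups, whereas the S20 gene AT3G47370, described above, showed 0.18 ± 0.10 without overlap. S3 lines the channel through which messenger RNA enters, and S26 the channel through which it leaves.

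The 3 S14 genes were the most alike of the families with 3 tested genes, with a spread of 0.058. S14 is a protein of the subunit's platform. AT2G36160 differed by 0.018 ± 0.092, AT3G11510 by 0.057 ± 0.093 and AT3G52580 by -0.0013 ± 0.11. Their pairwise differences were 0.058 or less in size, and all 3 estimates were negative after quantile normalization and positive after median centring.

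None of the S24, S9, S8 and S15 genes was called. The S24 genes AT3G04920 and AT5G28060 differed by -0.014 ± 0.11 and 0.035 ± 0.13, and the S9 genes AT5G15200 and AT5G39850 by 0.069 ± 0.10 and 0.15 ± 0.15. S24 is a protein of the body of the subunit, and S9, like S3, lines the entry channel. S8 also belongs to the body, and its bright gene AT5G20290 had 17280, 12988 and 16448 in wild type and 16193, 19095 and 17572 in the mutant. Wild type replicate 2 was low, the groups overlapped, and the difference was 0.19 ± 0.12 (limma, adjusted p = 0.320). S15 lies in the head near the decoding site, and its bright gene AT5G09510 showed -0.015 ± 0.12.

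Other genes of the translation machinery were read from lists of locus numbers. Of 37 further genes of the 40S subunit and its RACK1 scaffold, 10 had a probe set of their own and 9 were tested. None was called in limma (at an unadjusted p under 0.05, 1 was higher and 0 lower), with a median of 0.057. Of 129 genes of the large (60S) subunit 75 were tested, with a median of 0.090 and 61 above 0. Of all tested probe sets 43.9% were above 0, and those above the 90th percentile of signal had a median of 0.052. The 60S balance under other scalings is not reported here. In limma 2 of the 60S genes rose and 0 fell, against 8.17% and 10.4% of all tested probe sets. They were AT3G09200, at 10991 ± 1037 and 13894 ± 999.7 (0.34 ± 0.11, limma adjusted p = 0.0405), and AT5G60670, at 3378 ± 337 and 4273 ± 181 (0.34 ± 0.10, limma adjusted p = 0.0379). AT3G09200 encodes the stalk protein P0 and AT5G60670 the protein L12 at the base of that stalk. Both calls were lost after quantile normalization (limma, adjusted p = 0.0698 and 0.0729) and without a mean-variance trend (0.0949 and 0.0871). AT3G09200 was also lost when replicate 2 or 3 was left out, of the wild type (0.173 and 0.0658) as of the mutant (0.142 and 0.0708), and AT5G60670 without any array but wild type replicate 3.

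Among 12 tested initiation factor genes of 37 listed, 1 rose and 1 fell, with a median of 0.022. Of all tested probe sets 8.17% were called higher and 10.4% lower, so calls were no rarity on these arrays. AT1G77840, an eIF5 gene, had 647.7, 800.4 and 732.5 in wild type and 923.9, 1025 and 998.4 in the mutant, and rose by 0.43 ± 0.12 on the log2 scale (limma, adjusted p = 0.0229). AT5G54940, an eIF1 gene, had 10454, 8664 and 8219 in wild type and 6051, 6488 and 6023 in the mutant, and changed by -0.55 ± 0.11 (limma, adjusted p = 0.00391). Both factors bind the 40S subunit during scanning for the start codon. Neither gene's groups overlapped, which also held for 36.1% of all tested probe sets. Their other tested paralogues did not pass in limma and had overlapping groups. These were AT1G36730 (eIF5, 0.096 ± 0.12), AT4G27130 (eIF1, -0.081 ± 0.11) and AT1G54290 (eIF1, 0.085 ± 0.12). The call of AT5G54940 held without any 1 array, and that of AT1G77840 was lost when wild type replicates 1 and 3 (limma, adjusted p = 0.0752 and 0.0550) and mutant replicates 2 and 3 (0.0845 and 0.0526) were each left out.

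Elongation factors gave 2 tested genes of 14, factors of small subunit assembly 4 of 14, and the TOR pathway with promoter-binding factors of ribosomal protein genes 1 of 7, RAPTOR1. None of these was called, nor did any pass an unadjusted p under 0.05. Their medians were 0.17 and -0.096, and RAPTOR1, a TOR partner, had 342.4, 347.6 and 325.2 in wild type and 300.2, 274.1 and 276.6 in the mutant (-0.24 ± 0.13, limma adjusted p = 0.230).

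Tissue makeup and RNA quality were read beside these values. Fewer cells of a type and less RNA per cell cannot be told apart in whole seedlings. Markers of green tissue were present, with 2 of 5 measured (RCA and LHCB4.1). Their summed signal ran from 38174 to 44488 in wild type and from 45474 to 50254 in the mutant, without overlap and with neither called. Single probe sets above the 90th percentile of signal lacked overlap in 41.7% of cases. Markers of dividing cells, in which ribosomal protein genes are highly active, had 2 of 15 measured (PRL and AUR1), summing to 1092 to 1138 and 957 to 1187, with neither called. Root markers had 3 of 4 measured, summing to 12841 to 13692 and 12493 to 17166. Of these the peroxidase gene AT4G26010 fell (-1.07 ± 0.25, limma adjusted p = 0.0112), PYK10 did not pass and EXPA7 was too dim to test. Seed and flower markers had no probe set named here. For the actin control the 3' to 5' signal ratio averaged 2.80 ± 0.23 on wild type arrays and 3.40 ± 0.19 on mutant arrays (SD, n = 3 each, exact permutation p = 0.1), higher on every mutant array. That of GAPDH was 1.13 ± 0.058 and 1.13 ± 0.084 (exact permutation p = 1), and that of ubiquitin 1.45 ± 0.10 and 1.64 ± 0.23 (exact permutation p = 0.3). The part of these measures in the 40S values was not tested.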

How the data were processed

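Deposited intensities are MAS5 probe set signals on a linear scale, made by the authors per the submitters' processing notes, with version and settings not given in the sources used here. A trimmed mean (2% removed at each end) was 500.0 on each of the 6 arrays. Of 22810 probe sets, 64 controls were left out. Values were used as log2(signal + 16), which understates changes of dim genes, and probe sets above the 40th percentile of mean log2 signal were tested (13647). The mutant was compared with wild type in limma 3.58.1 under R 4.3.3 (lmFit, eBayes with trend), with adjustment by Benjamini-Hochberg over all tested probe sets, threshold 0.05. The fit was also run on simulated data, with an outcome not reported here. Genes were named through the platform annotation and Entrez numbers in RefSeq (TAIR10.1).

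The members and lists were chosen with earlier results of these data known. The 60S list was written from locus numbers after the annotation was read, since the planned rule needed gene descriptions not used here. Named are every called 40S gene, the 5 highest and 5 lowest changes, the 5 families with the widest spread and the genes next to the brightness limit. Others are named for completeness. The comparison with probe sets above the 90th percentile was added after seeing the data. Paralogues were compared by exact permutation, 17 pairs. Replicate numbers were not used to pair samples. The alternatives are listed with their effect in the closing section. With 3 arrays per group, the number of arrays limits the precision. Figures were drawn with matplotlib 3.10.9. Probe and gene sequences were not used here.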

Additional observations from a re-analysis of the deposited data

How the results depend on the processing

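Alternatives were offsets of 1 and 64, quantile normalization, median centring, no filter, a 60th percentile filter, eBayes without trend or robust, a replicate block, thresholds of 0.1 and 0.01, and leaving out each array. A mean over several probe sets of a gene was not run, since each 40S gene had 1. The count of 40S genes called higher, 1 as reported, was 0 without trend, with the replicate block and at 0.01, and 0 to 1 without 1 array. The count called lower was 0 under every alternative run. At 0.01 the counts over all probe sets were 581 higher and 644 lower, against 1115 and 1426. Without 1 array they ran from 775 to 968 and from 871 to 1298. The median 40S change without 1 array ran from 0.057 to 0.13. Pairs without overlap numbered 3 to 6 without 1 array, where fewer arrays make overlap rarer. With the replicate block AT4G25740 had an adjusted p = 0.0569 in limma. Same-numbered arrays of the groups deviated with correlations of -0.20, 0.016 and -0.17 across tested probe sets. Those of unlike-numbered arrays ran from -0.038 to 0.19. Same-numbered arrays were thus no more alike by this measure, and whether they shared a batch was not tested. For the other tested 40S genes no alternative run made or ended a call. Calls of 60S and initiation factor genes lost without 1 array, after either normalization or without trend are given with those genes. For these genes the offsets, filters and replicate block are not reported here. At a threshold of 0.01 AT5G54940 (limma, adjusted p = 0.00391) would stay called. The calls of AT1G77840 (0.0229), AT5G60670 (0.0379) and AT3G09200 (0.0405) would be lost there. Detection calls were not used here, so nothing is said of signal over background for the 3 dim genes.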
